A study of Mus musculus with 46 samples.

Results

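The cytosolic ribosomal protein genes encode the proteins of the ribosome that translates nuclear mRNAs, and they were followed here across RNA-seq libraries of mouse pancreatic islets and liver. Members were the genes whose symbol begins with Rpl or Rps and a number, plus Rplp0, Rplp1, Rplp2 and Rpsa. Genes named as pseudogenes with the ending -ps and the Rps6k kinases were left out, and a mean CPM (count scaled to a fixed library total) of at least 10 over all libraries was required. The rule gave 79 of the 55487 genes in the files. They comprised 30 proteins of the small subunit, 42 of the large subunit, the 3 proteins of the stalk (Rplp0, Rplp1 and Rplp2) and 4 genes named as paralogs of another member (Rps27l, Rpl7l1, Rpl22l1 and Rps4l). Of the 89 symbols that matched, 10 lay under the minimum. Just inside it was Rpl13a at 21.97 CPM, and just outside it was Rps10 at 2.90 CPM, followed by Rpl6l at 0.484 CPM and Rpl24 at 0.408 CPM. Rps10 and Rpl24 are core subunits that share exon sequence with another annotated gene on the same strand, over 20.6% of the exon bases of Rps10 and 47.0% of those of Rpl24. The paralogs Rpl3l, Rpl39l and Rpl10l, known from muscle or testis, stood at 0.0718, 0.0195 and 0.000787 CPM. Fau, whose product is cut to release a ribosomal protein, carries another symbol and was not a member.

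A ribosome holds 1 copy of most of these proteins, and the cell makes them in balance with ribosomal RNA. Most of their mRNAs belong to the 5′ terminal oligopyrimidine (TOP) class: they begin with a C followed by a run of pyrimidines, through which growth signals passing by the kinase mTOR raise or lower their translation. Surplus proteins are degraded, and a few, such as Rpl5 and Rpl11, bind Mdm2 when assembly fails. In beta cells and hepatocytes, both heavy secretors of protein, translation is a large part of the cell's energy use.

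The study disrupted mitochondrial genes in 2 tissues. Tfam packages mitochondrial DNA, Mfn1 and Mfn2 fuse the outer membranes of mitochondria, and Clec16a takes part in the removal of damaged mitochondria. The first set of islets was Tfam control (5 female and 3 male libraries) and Tfam KO (4 female and 2 male). The second was labelled Clec control or Clec KO on diets labelled RFD (4 control and 4 KO) or HFD (6 control and 5 KO). Labels for the livers were control (6), Mfn DKO (4) and Tfam KO (3), each with a sample name that carries the letters AAV. Ages, strains and the promoter or vector that drove each deletion are not given in the labels, the diets and AAV are not written out, and sex is given for the Tfam islets alone. Isolated islets spent a night in culture ahead of RNA extraction, and livers were frozen. The labels call replicates biological without saying whether each came from 1 animal, so the p-values measure the spread between these libraries. Bulk RNA cannot tell fewer cells of a type from less RNA per cell.

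Short stretches around the start sites are shown because the TOP run is the sequence feature these mRNAs are known for, and they are given for the members the results turn on. Each is a 30-base window on the gene's own strand, 5′ to 3′, from the RefSeq promoter table for GRCm38.p6. Capitals mark the longest run of at least 8 C or T that starts with C within 50 bases of the annotated start, and a window with no run is centred on the start. Counted from the annotated start, runs began at 2, 3 and 8 in Rpl13a, Rpl22l1 and Rps12. They began at 26 and 39 in Rpl4 and Rpl12, and at -39, upstream of the start, in Rpl22. A TOP run opens the mRNA, so a marked run need not be one.
Rpl12, chr2:32961732-32961761, plus strand: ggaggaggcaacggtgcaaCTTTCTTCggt
Rps12, chr10:23787181-23787210, minus strand: caccgccggCCTTTTCCCCTgccgccgccg
Rpl4, chr9:64173406-64173435, plus strand: agcgtggCCTTCTCCTCTCCCCgtcatggt
Rpl13a, chr7:45128722-45128751, minus strand: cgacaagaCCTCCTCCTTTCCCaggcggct
Rpl22, chr4:152325679-152325708, plus strand: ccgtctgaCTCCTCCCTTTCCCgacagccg
Rpl22l1, chr3:28805500-28805529, plus strand: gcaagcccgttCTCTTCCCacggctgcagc
Rplp0, chr5:115559452-115559481, plus strand, no run: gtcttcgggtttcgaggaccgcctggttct
Rpl7l1, chr17:46782642-46782671, minus strand, no run: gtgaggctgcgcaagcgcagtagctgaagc

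The table held a promoter for 58 of the 79 members. Such a run, searched on the gene's strand, was present in 47 of these 58 (81.0%), against 7769 of 27025 promoters of all genes (28.7%). The letters CCGGAA, the core bound by ETS factors, occurred on either strand of the 300-base promoter in 51.7% of members and 15.2% of all genes. The letters AANATGGC, a core of the YY1 motif, occurred in 18.97% and 6.23%. A match is a description of letters and not of a bound site or of the first bases of an mRNA. The entries cover 73.4% of the members, under the 80% needed, so a check of the changes against these features would be void and none is given.

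Library totals were 55223041 to 83342809 counts in the Tfam islets, 16235173 to 55810879 in the Clec16a islets and 41961114 to 56894510 in the livers. Tfam was lower in Tfam KO islets (log2 fold change -1.21) and Tfam KO livers (-2.0), and Mfn1 and Mfn2 were lower in Mfn DKO livers (-2.0 and -2.04). Clec16a was not lower in the libraries labelled Clec KO: the difference was 0.13 on RFD (adjusted p = 0.612) and 0.08 on HFD (adjusted p = 0.740), edgeR quasi-likelihood test. A gene total does not check a deletion that leaves the rest of the gene transcribed, so these libraries are named by their labels. Beta cell markers took 17.8% to 25.3% of counts in Tfam control islets and 11.9% to 15.3% in Tfam KO islets, with 10 of 10 markers called lower. Hepatocyte markers took 9.88% to 13.9% of counts in control livers, 10.6% to 12.5% in Mfn DKO and 8.68%, 4.13% and 11.5% in the Tfam KO livers. Xist ran from 0.211 to 615 CPM among control livers and from 0.0847 to 641 among Mfn DKO, and stood at 0.705, 781 and 788 in Tfam KO, and the labels give no sex for livers. With the Xist level as a covariate 37 members were called in Mfn DKO and 76 in Tfam KO livers, against 35 and 76 without it. The share of all genes called with that covariate is not given. Scaling by library totals alone moved the median log2 fold change of all genes by 0.21 in Tfam islets, 0.12 in Clec16a islets on HFD, 0.19 in Mfn DKO and 0.43 in Tfam KO livers, and by 0.24 between the 2 liver KO groups, so changes below are relative to the scaled middle of all genes. Relative to the median of all genes, the median of the members was 0.36 and 0.37 in Tfam islets with and without that scaling, 0.47 and 0.47 in Mfn DKO, and 1.01 and 1.04 in Tfam KO livers. The share of all calls that were higher was 55.5%, 53.0% and 61.6% in these comparisons, and 91.0%, 82.3% and 88.9% with library totals alone. It was 58.7% and 83.5% in Clec16a islets on HFD and 36.0% and 93.0% between the 2 liver KO groups.

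The members together took a larger share of all counts in every Tfam KO and Mfn DKO library than in any control of the same tissue. In Tfam islets the share was 1.80% ± 0.256 (SD, n = 8) in controls and 2.69% ± 0.132 (n = 6) in KO, a ratio of 1.49. The control libraries ran from 1.45% to 2.31%, with the highest in female control replicate 4. The KO libraries ran from 2.59% to 2.94%. In liver the share was 1.58% ± 0.118 (n = 6) in controls, 2.605% ± 0.392 (n = 4) in Mfn DKO and 4.49% ± 1.74 (n = 3) in Tfam KO. The Mfn DKO livers stood at 2.43%, 2.74%, 3.07% and 2.17%, and the Tfam KO livers at 4.74%, 6.09% and 2.64%. The third Tfam KO liver thus lay among the Mfn DKO livers. In the Clec16a islets the shares were lower in every group, and KO and control overlapped. On RFD they were 1.04% ± 0.101 (n = 4) in control and 1.16% ± 0.118 (n = 4) in KO. On HFD they were 0.995% ± 0.0985 (n = 6) and 1.14% ± 0.137 (n = 5). Within the sequencing lane that the file names give, KO minus control was 0.0942 and 0.0516 percentage points on RFD (lanes 7 and 8, with 1 KO library on lane 8) and 0.232 and 0.0854 on HFD.

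**Figure D1:**
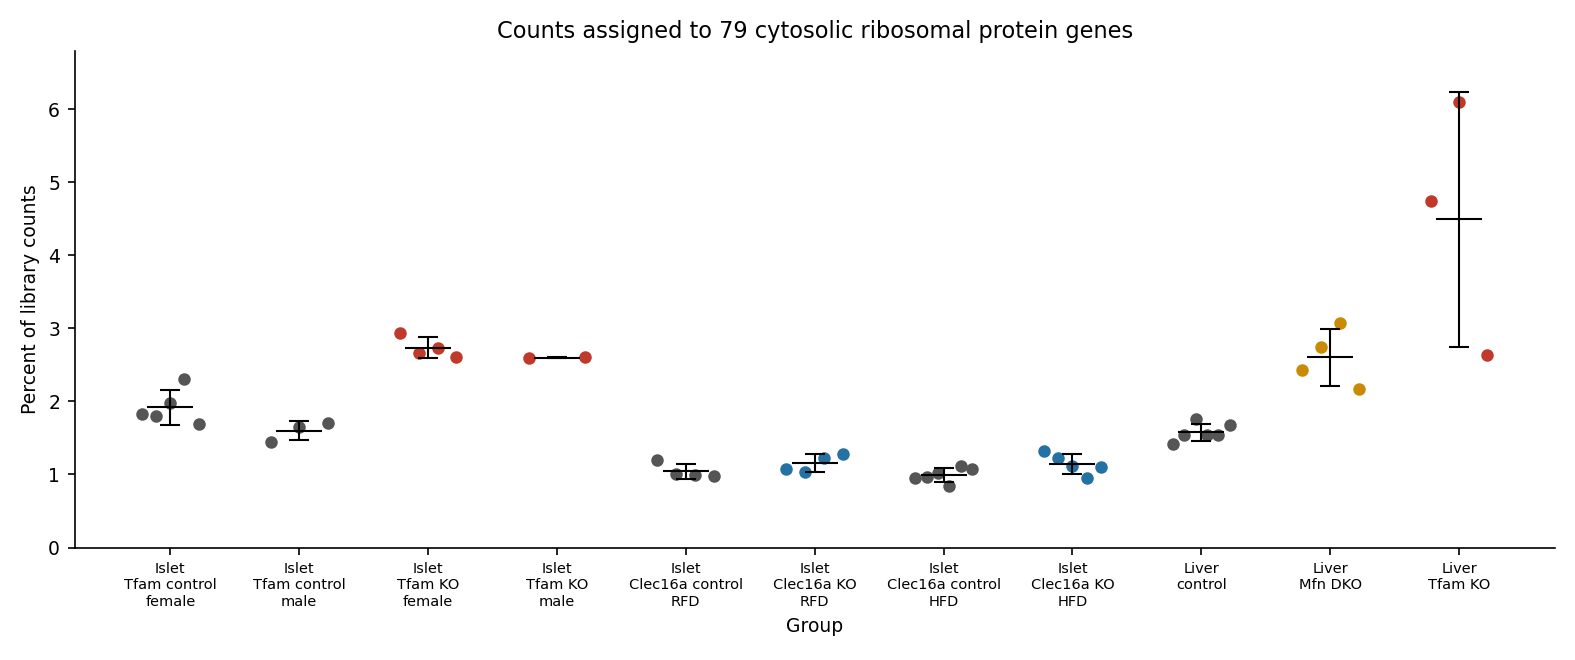
Share of all counts taken by the 79 members, in percent, for each library (points) in each group, with the group mean and SD. The Tfam KO islets (2.59% to 2.94%), Mfn DKO livers and Tfam KO livers lie above their controls, while the Clec16a islet groups overlap.

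Levels per transcript length were compared with the authors' deposited TPM values. Rplp1, a stalk protein, had the highest mean TPM over all libraries at 2573, followed by Rps15, a small-subunit protein near the decoding centre, at 1137 and Rpl4, an early-assembling large-subunit protein, at 1031. Rpl13a, Rpl7l1 and Rpl22l1 had the lowest TPM, at 24.9, 42.7 and 47.2. Annotated genes on the same strand (Gm45713, Mir5121 and Snord33) together cover 35.4% of the exon bases of Rpl13a, and their part in the low level was not tested. The ranking of the members was much the same in the 2 tissues: across the 79 genes, mean TPM in control livers and control Tfam islets had Pearson's r = 0.933 and Spearman's rho = 0.921. Genes are not independent replicates, and both means share the authors' lengths. TPM of Rplp1 averaged 1548 in control Tfam islets, 2926 in KO islets, 1748 in control livers, 4489 in Mfn DKO and 8402 in Tfam KO livers. TPM is a share of the library and is not scaled to the middle of all genes. Differences between groups in TPM were larger here than the scaled changes of Rplp1 given below, and the reasons for the gap were not tested.

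In Tfam KO islets most ribosomal protein mRNAs rose together by a modest amount. With sex as a term, 57 of 79 members were called higher and 1 lower at an adjusted p of 0.05 or less (edgeR quasi-likelihood test, Benjamini-Hochberg over all genes), against 20.9% of the 19752 genes tested. Calls toward higher made up 11.6% of all genes, and toward lower 9.29%. The median log2 fold change was 0.35 over the members (77 of 79 above 0) and -0.01 over all genes. The small subunit gave 24 of 30 called higher (median 0.37) and the large subunit 31 of 42 (median 0.35), while the stalk gave 1 of 3. Control and KO libraries were fully apart for Rpl4, Rpl12 and Rpl22 and overlapped for the other 76 members, while 7.49% of all genes tested were fully apart in either direction.

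Rpl12 (chr2:32961559-32965345, plus strand, GRCm38), which forms the base of the stalk together with Rplp0, had normalised CPM of 226, 225, 309.9, 365 and 229 in the female controls and 195, 237 and 240.0 in the male controls. In KO islets it had 438, 439, 428 and 399.6 in females and 388 and 377 in males. Every KO library was above every control, with the nearest control, female replicate 4, at 365. The log2 fold change was 0.69 (SE 0.10, adjusted p = 0.0002, edgeR). Rpl22 (chr4:152325742-152334071, plus strand), a large-subunit protein whose loss the ribosome tolerates, had 118, 121, 118, 161 and 107 CPM in female controls and 94.6, 103 and 108 in male controls. Its KO values were 205, 184, 192 and 180.1 in females and 188 and 176 in males. These groups were also separate, with a log2 fold change of 0.69 (SE 0.08, adjusted p = 2.15e-05). Rpl4, the third, rose by 0.44 (SE 0.07, adjusted p = 0.0002).

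The other members that have known roles of their own were mixed. Rpl5, which with Rpl11 carries the 5S ribosomal RNA and can bind Mdm2, rose by 0.52 (SE 0.09, adjusted p = 0.0004), while Rpl11 had 0.15 (adjusted p = 0.336). Rps6, the target of the S6 kinases, rose by 0.36 (adjusted p = 0.0095). Rps19, mutated in Diamond-Blackfan anaemia, rose by 0.54. Among the stalk proteins, which recruit the elongation factors, Rplp1 rose by 0.51 (SE 0.10, adjusted p = 0.0023), and Rplp2 and Rplp0 had 0.29 (adjusted p = 0.0725) and 0.23 (adjusted p = 0.191). The single member called lower was Rpl7l1, a relative of Rpl7 that acts in ribosome assembly. It had 57.5, 61.2, 71.3, 64.8 and 58.9 CPM in female controls, 70.7, 70.4 and 65.8 in male controls, and 55.7 to 60.6 in KO. Those groups overlapped, and the change of -0.16 (SE 0.05, adjusted p = 0.0484) turned to 0.05 (adjusted p = 0.504) when libraries were scaled by their totals alone. That call was also lost when genes of low counts were kept, with the acinar score as a covariate, with no term for sex and when any 1 of 11 of the 14 libraries was left out. Its adjusted p ran from 0.0157 to 0.504 over these and the other alternatives.

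**Figure D2:**
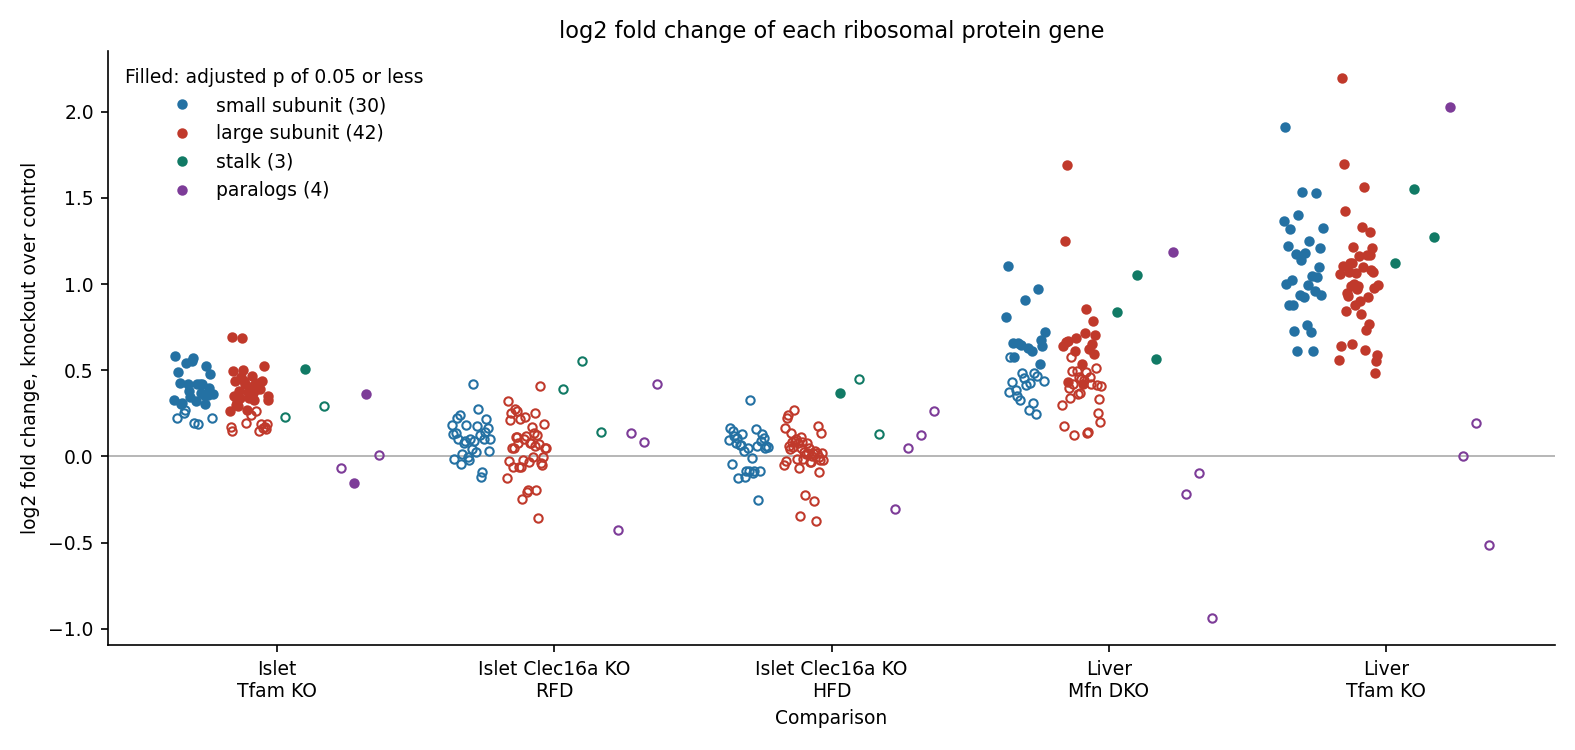
Log2 fold change of each member (points, coloured by role, filled where the adjusted p was 0.05 or less) by comparison. Most members lie above 0 in Tfam KO islets (median 0.35) and in both liver comparisons (medians 0.49 and 1.04), and near 0 in the Clec16a islets.

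Female control replicate 4 was the highest of the 8 control libraries for 78 of 79 members. Without it 76 members were called, with 25.3% of all genes called, and the median was 0.44. Without male KO replicate 1 the count was 37, with 15.99% of all genes called. Both sexes showed the same direction: 16 members were called higher in females (10.8% of all genes called, 6.67% higher, median 0.26) and 33 in males (8.93% called, 5.24% higher, median 0.50), and all 16 were among the 33. Without female control replicate 4 these counts were 66 and 67 (13.3% and 12.9% of all genes called). Without male KO replicate 1 the male count was 1 (3.52% of all genes called). A test of the difference between sexes called 0 members (0.00% of all genes, edgeR). None had an unadjusted p under 0.05, the lowest adjusted p was 0.821, and DESeq2 also called 0. The share of counts of acinar cell markers was 0.143% to 1.21% in controls and 0.237% to 2.76% in KO islets, with 0 of 17 acinar markers called. The lower beta cell markers moved with the rise of the members, and their part in the result was not tested.

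In livers of the Mfn DKO group fewer members passed the test, with a larger median change than in the islets. Of the 79 members, 35 were called higher and 0 lower, against 9.87% of 17024 genes called in either direction and 5.23% called higher. The median log2 fold change was 0.49 over the members and 0.02 over all genes, and 53 members did not overlap between control and Mfn DKO libraries, against 19.2% of all genes tested. In the small subunit 14 of 30 were called (median 0.51), in the large subunit 17 of 42 (median 0.46), and in the stalk 3 of 3 (median 0.84). The most significant was Rpl13a (chr7:45125558-45128761, minus strand), a member whose protein also takes part in silencing of inflammatory mRNAs. Its CPM was 11.6 to 16.3 in controls (median 13.8) and 41.4, 50.9, 56.5 and 29.96 in Mfn DKO. No Mfn DKO liver was near the control range, and the log2 fold change was 1.69 (SE 0.19, adjusted p = 0.0004, edgeR).

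All 3 stalk genes were called higher in these livers, by unequal amounts. Rplp1 (chr9:61913284-61914542, minus strand) had 359 to 481 CPM in controls (median 396) and 807, 885, 1042 and 663 in Mfn DKO, a log2 fold change of 1.05 (SE 0.22, adjusted p = 0.0117). Rplp0 rose by 0.84 (SE 0.19, adjusted p = 0.0201) and Rplp2 by 0.56 (adjusted p = 0.0486). The change of Rplp2 lay between the quartiles of all members, 0.378 and 0.655. Rpl12, which docks beside them, had 159 to 202 CPM in controls (median 166) and 406, 413, 529 and 304 in Mfn DKO. The groups were separate, with a log2 fold change of 1.25 (SE 0.25, adjusted p = 0.0092). Rps12 rose by 1.10 (adjusted p = 0.0099), Rpl39, which lines the exit tunnel, by 0.78 (SE 0.15, adjusted p = 0.0083), Rps19 by 0.66 and Rps6 by 0.54 (adjusted p = 0.0352). Rpl5 had 0.51 (adjusted p = 0.0555), Rpl11 0.17 (adjusted p = 0.420) and Rpl22 0.12 (adjusted p = 0.517). The number of calls depended on single libraries: it was 7 without Mfn DKO replicate 3 (5.31% of all genes called), and 62 without Tfam KO replicate 3 (16.5% of all genes called), which enters this fit through the shared estimate of the spread. The median stayed between 0.40 and 0.54.

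In Tfam KO livers nearly the whole set was higher. Calls toward higher covered 76 of 79 members, with 0 lower, against 29.3% of all genes called in either direction and 18.1% called higher. All 30 small-subunit, 42 large-subunit and 3 stalk genes were called, with medians of 1.04, 0.999 and 1.27, and 76 members did not overlap with the controls, against 20.9% of all genes tested. The exceptions were paralogs: Rps27l had 0.19 (adjusted p = 0.266), Rpl7l1 0.00 (adjusted p = 0.992) and Rps4l, a processed pseudogene in the annotation, -0.51 (adjusted p = 0.364). The smallest called change was that of Rpl7, at 0.49 (adjusted p = 0.0311).

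Rpl12 again led the list. Its CPM was 916, 1108 and 367 in the Tfam KO livers, against a highest control of 202. The third KO liver lay below the other 2 and above every control. The log2 fold change was 2.20 (SE 0.26, adjusted p = 0.0004, edgeR), a 4.59-fold difference. Rps12 (chr10:23785183-23787275, minus strand), a protein of the beak of the small subunit, had 180.1 to 241 CPM in controls (median 203) and 909, 996 and 411 in Tfam KO. It rose by 1.91 (SE 0.23, adjusted p = 0.0005). Part of its gene holds small nucleolar RNAs, which cover 13.7% of its exon bases. Rplp1 had 1396, 1553 and 650.3 CPM, a rise of 1.55 (SE 0.23, adjusted p = 0.0011), and Rpl13a had 60.5, 43.8 and 30.2, a rise of 1.70 (SE 0.21, adjusted p = 0.0004). Rpl13a was thus as high in Mfn DKO as in Tfam KO livers, whereas Rpl12 had its highest values in Tfam KO.

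**Figure D3:**
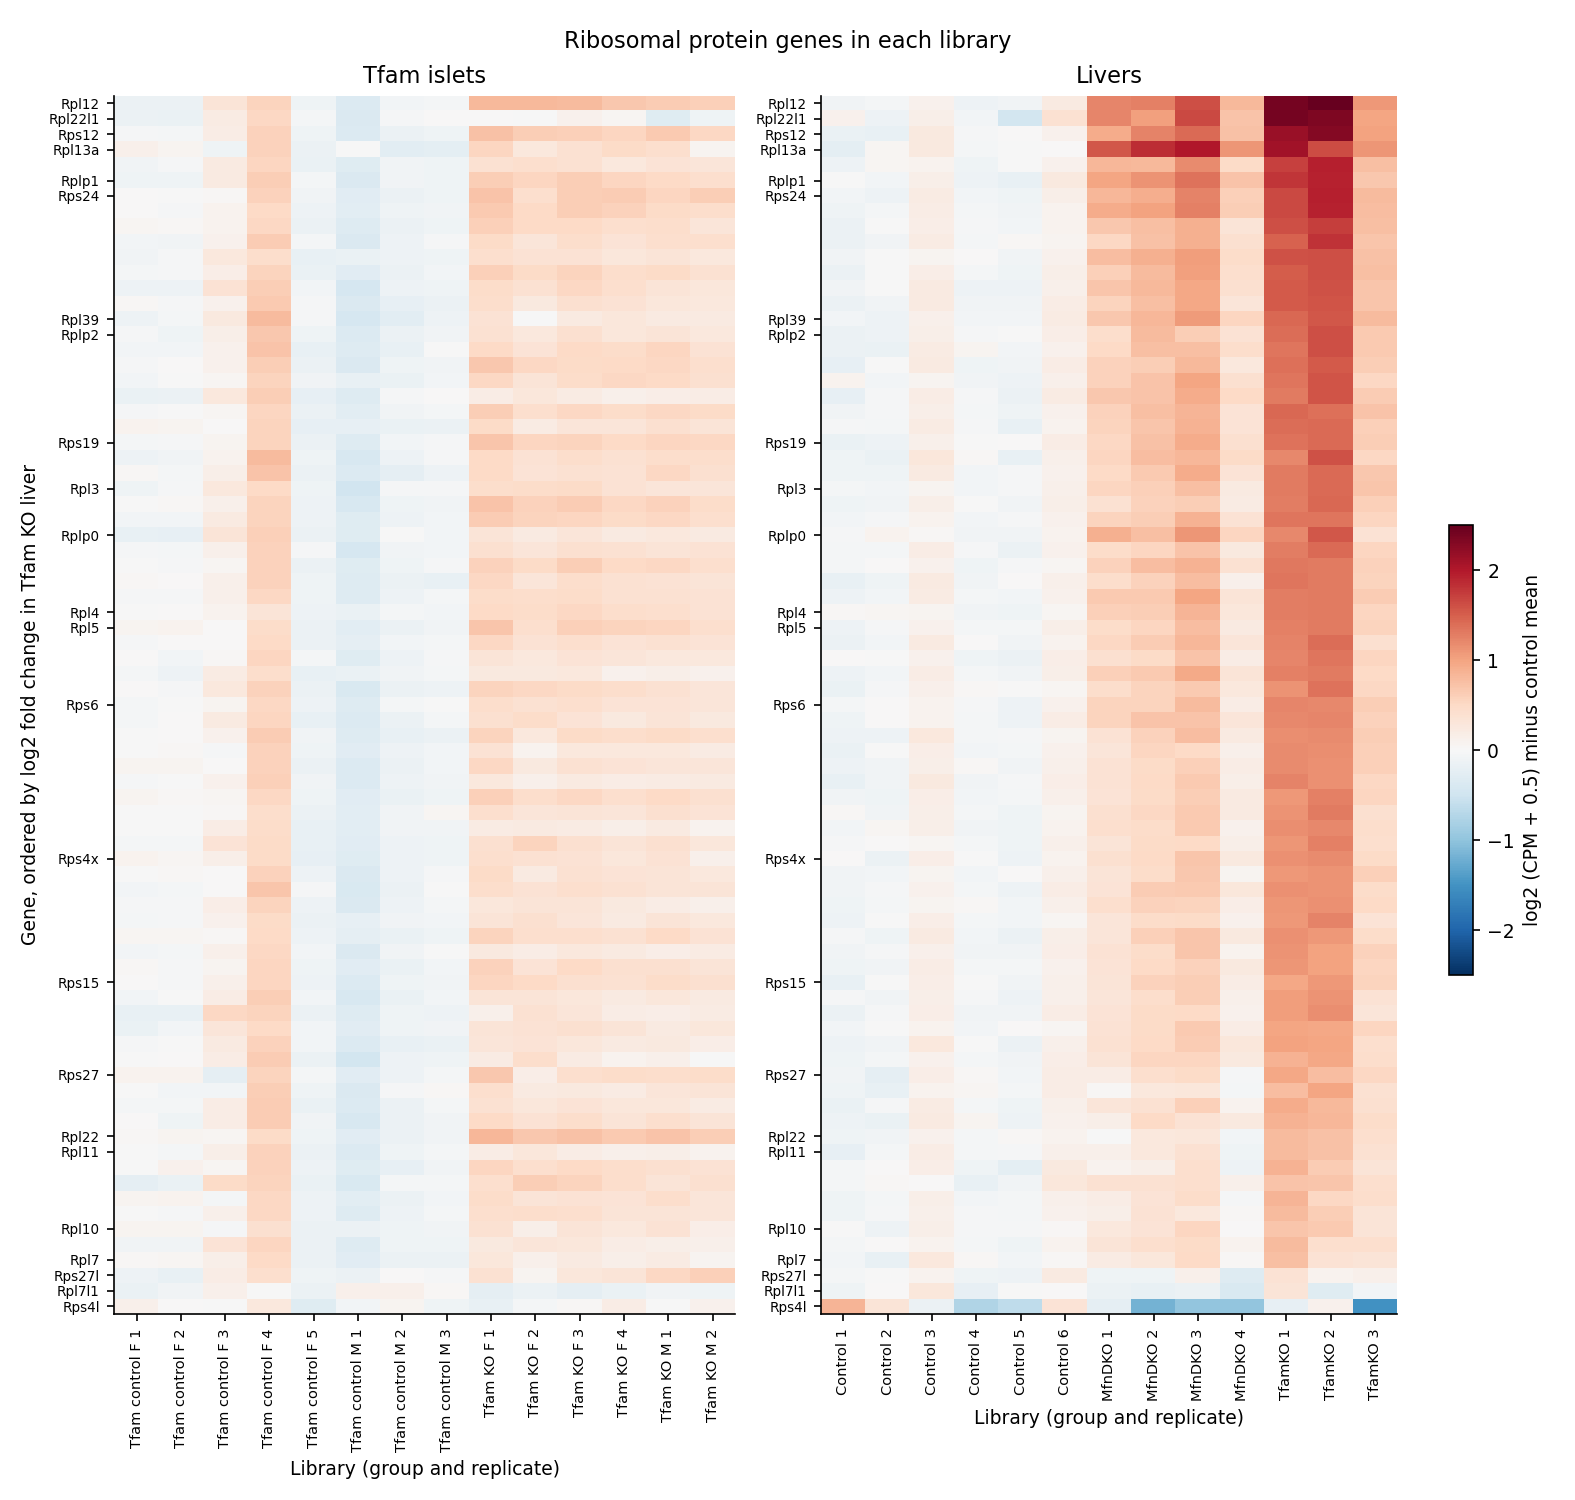
Log2 CPM of each member (rows) in each library (columns) of the Tfam islets and livers, as the difference from the mean of the matching controls, ordered by the change in Tfam KO liver, with the names of the genes chosen by the naming rule. Columns of Tfam KO liver replicates 1 and 2 are the strongest, replicate 3 resembles the Mfn DKO livers, and female control islet replicate 4 stands out from the other controls.

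The 2 liver groups share their 6 control libraries, so their changes from control are not independent. Set against each other directly, Tfam KO exceeded Mfn DKO for 79 of 79 members. The median log2 difference was 0.52 over the members and 0.01 over all genes, but 0 members were called (0.294% of all genes called, edgeR). Of the members, 68 had an unadjusted p under 0.05, the lowest adjusted p was 0.0986, and DESeq2 called 29. No share of all genes stands beside the counts by unadjusted p or by DESeq2, so they are not read as particular to the members. Tfam KO replicate 3 was the lowest of its group for 76 of 79 members. Without it 70 members were called, with 23.95% of all genes called, and the median was 0.73. Beside this, hepatocyte markers took 4.13% and 8.68% of counts in replicates 2 and 1 and 11.5% in replicate 3. Within the Tfam KO group the share of members was thus highest where that of hepatocyte markers was lowest, and the part of this in the result was not tested.

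Islets and liver share no library, so the response to loss of Tfam can be set side by side. Of the 58 members called in islets, 56 were also called in liver (96.6% of the islet calls and 73.7% of the 76 liver calls). These shares are close to those of all 79 members, of which 96.2% were called in liver and 73.4% in islets. The medians were 0.35 in islets and 1.04 in liver, and their difference was not tested. Across the 79 genes the log2 fold changes in islets and liver had r = 0.421 and rho = 0.396, and without the 4 paralogs r = 0.448 and rho = 0.411. These are descriptions across genes, which share their length and base composition in both tissues. Rpl12 was the highest of all members in both, and Rps12 was among the leading 4. Rpl22 stood next to Rpl12 in islets (0.69) and was among the smaller changes in liver (0.65, adjusted p = 0.0034). Between the log2 fold change and exon length rho was 0.055 in Tfam islets, 0.006 in Mfn DKO livers and 0.075 in Tfam KO livers across the same genes.

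**Figure D4:**
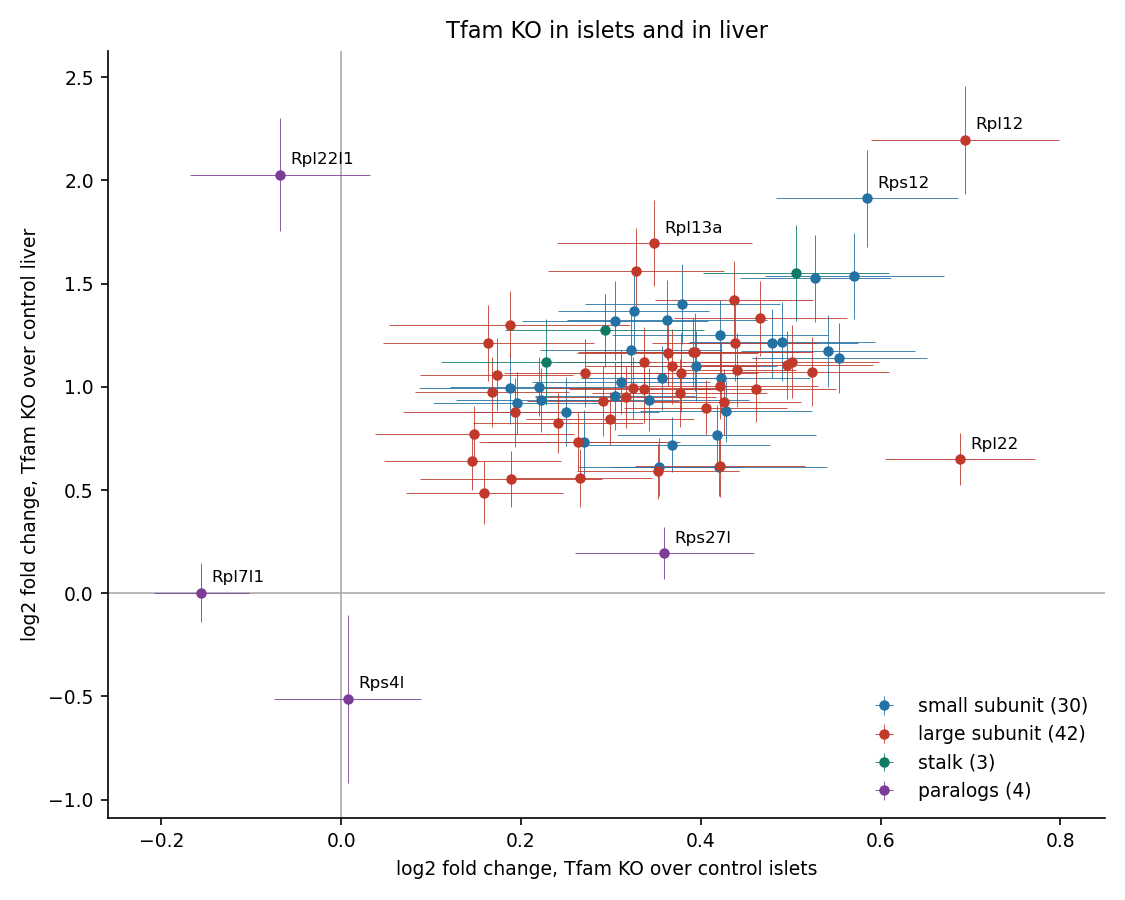
Log2 fold change of each member in Tfam KO islets (horizontal) and Tfam KO liver (vertical), coloured by role. Lines are standard errors. Rpl12 is at the upper right, Rpl22 is at 0.69 in islets and 0.65 in liver, and Rpl22l1 is near 0 in islets and at 2.03 in liver.

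The ratio of summed small-subunit to large-subunit counts was 0.801 ± 0.0137 (n = 8) in Tfam control islets and 0.824 ± 0.00576 (n = 6) in KO. In liver it was 0.821 ± 0.0102 (n = 6) in controls, 0.862 ± 0.00621 (n = 4) in Mfn DKO and 0.871 ± 0.0124 (n = 3) in Tfam KO. Neither liver KO group overlapped with the controls, which reached 0.837, while the islet groups overlapped. These ratios depend on the members in each sum, and no test was made.

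In the Clec16a islets almost no member was called. On RFD 0 of 79 members were called between libraries labelled Clec KO and Clec control, against 7.52% of 17254 genes (edgeR). At an unadjusted p under 0.05 there were 4, and DESeq2 called 2. On HFD only Rplp0 was called, with 9.57% of all genes called, and 3 members had an unadjusted p under 0.05. No share of all genes stands beside the counts by unadjusted p or by DESeq2. Those counts are thus not read as results about the members. The medians were 0.09 and 0.05. Rplp0 (chr5:115559467-115563727, plus strand), the scaffold of the stalk, had CPM of 214 to 296 in HFD controls (median 285) and 426, 373, 339, 266 and 362 in HFD KO. KO replicate 4 lay within the control range, and the log2 fold change was 0.37 (SE 0.11, adjusted p = 0.0428).

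On RFD the Rplp0 values were 329, 295, 275 and 257 CPM in controls and 369, 341, 363 and 443 in KO, which did not overlap. That difference of 0.39 missed the threshold (adjusted p = 0.0771). Rplp1 behaved alike, with 372, 340.0, 358 and 306 CPM in RFD controls and 555, 545, 505 and 412 in RFD KO, a log2 difference of 0.55 (adjusted p = 0.151). Within lanes 7 and 8 the log2 difference of Rplp1 was 0.45 and 0.72 on RFD and 0.45 and 0.56 on HFD. Lane 8 held 1 KO library on RFD. On HFD the groups overlapped, with 252 to 512 CPM of Rplp1 in controls and 313 to 656 in KO. Replicate 4 of the HFD KO libraries was apart from its group, and without it 7 members were called on HFD (among them Rpl12, Rpl13, Rplp0, Rps26, Rps4l and Rps6, named after their values were seen) and 2 on RFD, with 19.98% and 11.95% of all genes called. That library is 1 of 6, from all 4 groups, that stand apart for Rpl39 (see the last section). Control HFD replicates 5 and 6, also among those 6, stayed in that fit, so the removal was uneven between KO and control. The call of Rplp0 was lost when genes of low counts were kept, and when any 1 of 13 of the 19 libraries was left out.

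No member was called between the diets. HFD against RFD called 0 members in controls (0.0406% of all genes) and 0 in KO (0.0116%), with medians of -0.08 and -0.12. None had an unadjusted p under 0.05 in either, and DESeq2 called 0. The interaction of genotype and diet also called 0 members (0.00% of all genes).

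Rpl22 and Rpl22l1, which replace each other in the ribosome, changed in their ratio in opposite directions in Tfam KO islets and in the KO livers. The protein of Rpl22 is known to bind the RNA of Rpl22l1 and lower it. Rpl22l1 (chr3:28805436-28807424, plus strand) had 37.2 to 69.4 CPM in Tfam control islets and 39.1 to 51.5 in KO, which overlapped fully (log2 fold change -0.07, adjusted p = 0.697). In liver it had 14.4 to 26.5 CPM in controls (median 20.6), 47.6, 41.6, 64.1 and 33.3 in Mfn DKO, and 107, 103 and 40.3 in Tfam KO. It rose by 1.19 (SE 0.26, adjusted p = 0.0141) and 2.03 (SE 0.27, adjusted p = 0.0008), with no overlap with controls. Rpl22 had 164 to 190.5 CPM in control livers, 176, 210.4, 215 and 168 in Mfn DKO, and 304, 292 and 234 in Tfam KO.

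Ratios of a paralog to its parent within a library do not depend on how libraries are scaled. The 24 such tests used two-sided exact permutation of the libraries, within sex in Tfam islets, with Benjamini-Hochberg adjustment. Ratios given are log2 means turned back, with the sexes pooled in Tfam islets. Log2 differences in those islets are averages over the sexes, weighted by the numbers of libraries. The ratio of Rpl22l1 to Rpl22 was 0.418 in Tfam control islets and 0.249 in KO (log2 difference -0.75, exact p = 0.0008, adjusted p = 0.0190). In liver it was 0.114 in controls, 0.237 in Mfn DKO (difference 1.06, exact p = 0.0048, adjusted p = 0.0286) and 0.277 in Tfam KO (1.28, exact p = 0.0119, adjusted p = 0.0357). Neither tissue had overlapping libraries, and the difference between tissues was not tested. The islet change came with a higher Rpl22 and the liver changes with a higher Rpl22l1.

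Rps27l and Rpl7l1 lagged behind their parents in the KO livers, and Rpl7l1 also did so in Tfam KO islets. The ratio of Rps27l, a target of p53, to Rps27 was 1.005 in control livers, 0.780 in Mfn DKO (log2 difference -0.37, exact permutation, adjusted p = 0.0286) and 0.679 in Tfam KO (-0.56, adjusted p = 0.0357). In islets it was 0.217 and 0.206 (-0.06, adjusted p = 0.849). The ratio of Rpl7l1 to Rpl7 was 0.179 in Tfam control islets and 0.142 in KO (-0.32, adjusted p = 0.0357, with overlap), and without female or male KO replicate 1 the adjusted p was 0.0536. In liver it was 0.235 in controls, 0.170 in Mfn DKO (-0.46, adjusted p = 0.0286) and 0.167 in Tfam KO (-0.49, adjusted p = 0.0357). With 3 Tfam KO livers, the exact permutation p of all 3 ratios was 0.0119, the smallest that 84 permutations can give. Leaving out any 1 of the 9 libraries in that comparison allows fewer permutations, and raised the adjusted p to as much as 0.0952. That rise is fixed by the number of libraries, so it does not show that the ratios depend on a single one. No ratio passed in the Clec16a islets or between the 2 liver KO groups. On RFD the ratio of Rpl7l1 to Rpl7 went the other way, with 0.232 in control and 0.254 in KO. Libraries did not overlap there (log2 difference 0.13, exact permutation p = 0.0286, adjusted p = 0.0762). In the Clec16a islets Rpl22l1 was higher in the 6 libraries that stand apart for Rpl39 (see the last section). The ratio tests pool those 6 with the rest.

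**Figure D5:**
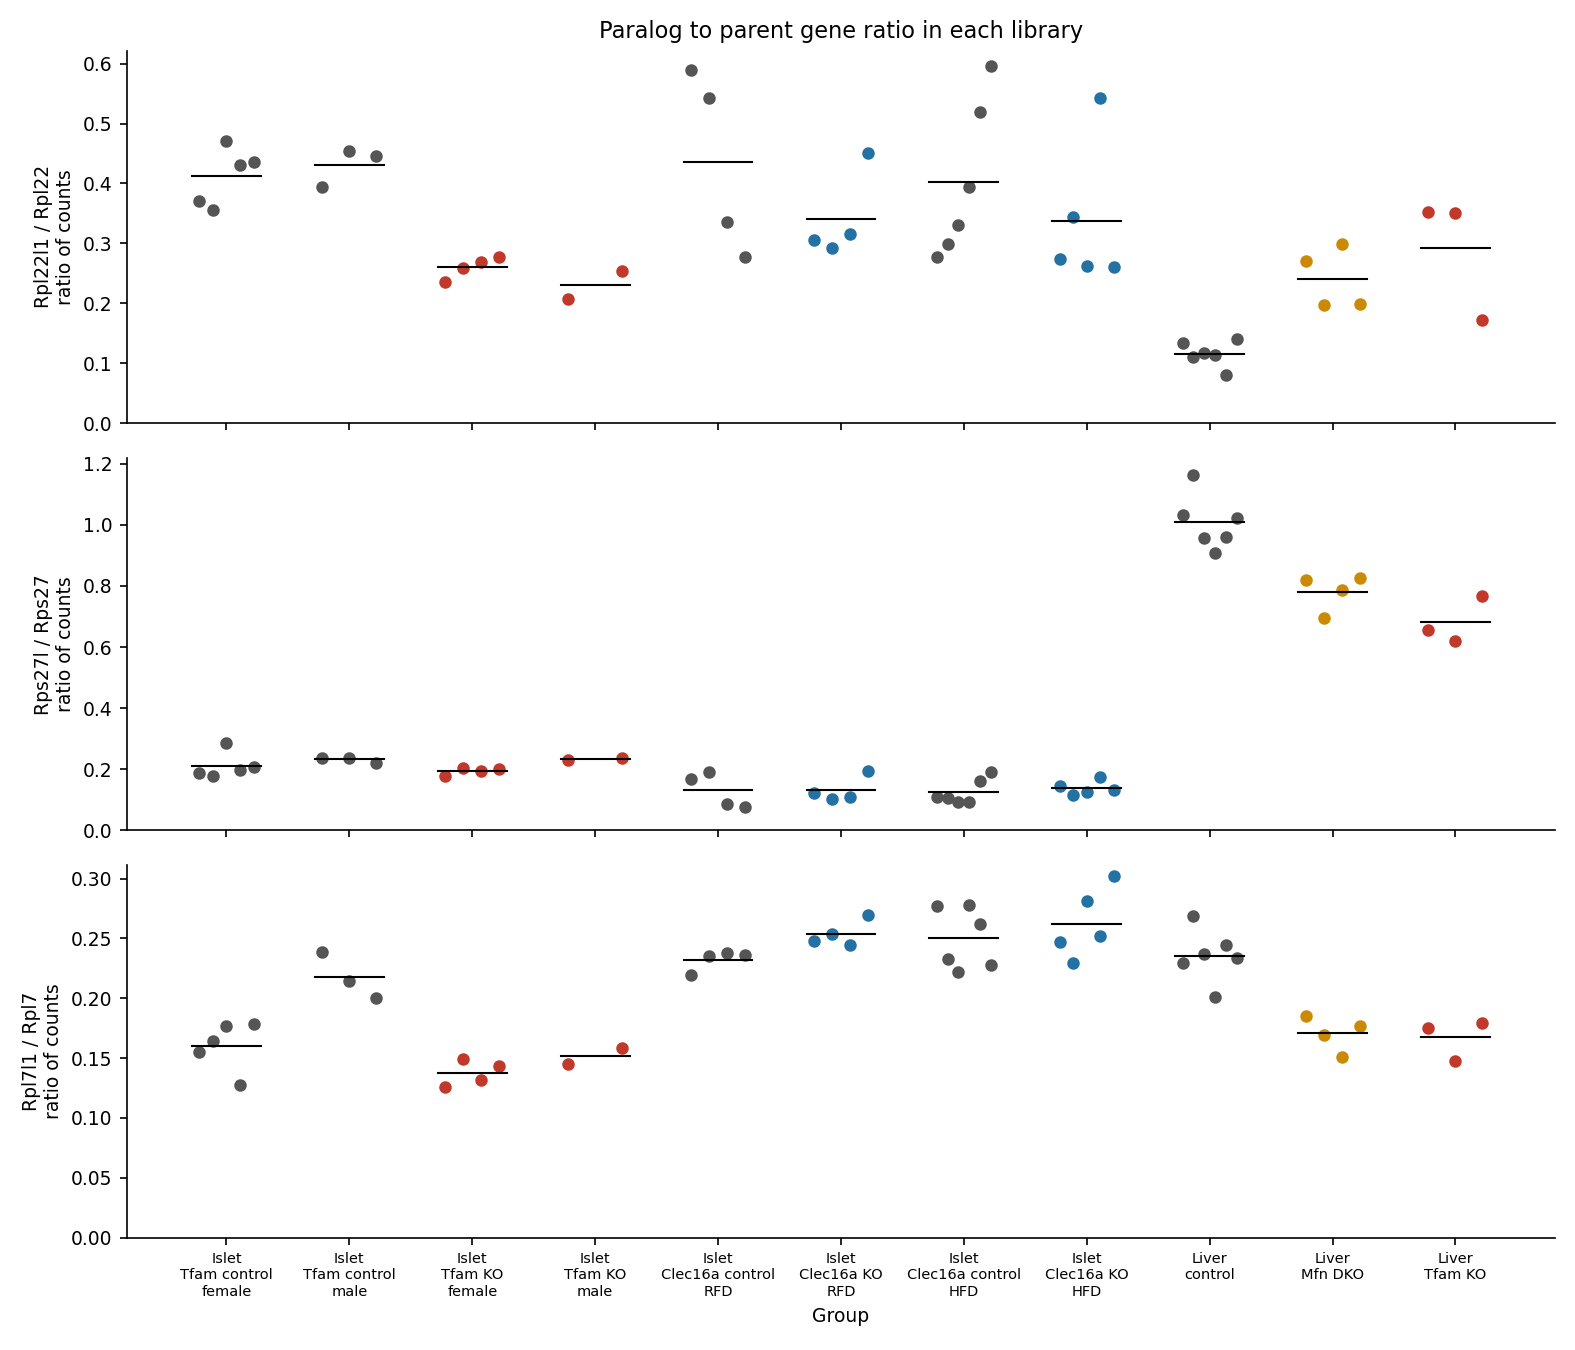
Ratio of each paralog to its parent gene (Rpl22l1 to Rpl22, Rps27l to Rps27, Rpl7l1 to Rpl7) in each library (points), by group, with group means (lines), on a linear axis from 0. The Rpl22l1 to Rpl22 ratio falls in Tfam KO islets (0.418 to 0.249) and rises in both liver KO groups (0.114 to 0.237 and 0.277). These values are log2 means turned back, with the sexes pooled, while the lines are arithmetic means of each group.

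Other genes of the translation machinery were described from lists of TOP-regulated factors, ribosome assembly, RNA polymerase I and mTOR regulators. Of all genes tested, 11.6% were called higher and 9.29% lower in Tfam KO islets, 5.23% and 4.64% in Mfn DKO livers, and 18.1% and 11.3% in Tfam KO livers. In Tfam KO islets 14 of 24 further TOP genes were called higher and 2 lower (median 0.28), among them the elongation factors Eef1a1 (0.45) and Eef2 (0.39), and Tpt1 (0.58). Ribosome assembly factors gave 27 higher and 1 lower of 92 (median 0.11), and RNA polymerase I genes 1 higher and 2 lower of 12. In Mfn DKO livers 2 of 23 TOP genes were called higher and 1 lower (median 0.18). Only 1 of 92 assembly factors and 0 of 12 RNA polymerase I genes were called. There the called TOP genes were Eef1b2 (0.83, adjusted p = 0.0259) and Rack1 (0.74, adjusted p = 0.0151), and Eif4a2 was lower (-0.49).

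In Tfam KO livers more of these genes were called. They had 18 of 23 TOP genes higher (median 0.51), 65 of 92 assembly factors higher and 1 lower (median 0.68), and 8 of 12 RNA polymerase I genes higher (median 0.73). Examples were the nucleolar proteins Npm1 (1.38), Gar1 (1.42) and Nhp2 (1.42), and Polr1a (0.80), the largest subunit of RNA polymerase I. Among 32 mTOR regulators 11 were higher and 1 lower in Tfam KO islets, 3 and 2 in Mfn DKO livers, and 7 and 4 in Tfam KO livers. In the livers these counts lie near the shares of all genes given above. Ddit4, an inhibitor of mTOR complex 1, rose by 3.44 in Mfn DKO and 2.94 in Tfam KO livers. Eif4ebp1, the repressor of cap-dependent initiation, rose by 1.49 in Tfam KO islets and 1.39 in Tfam KO livers. The regulators called lower are not named, and the activity of mTOR was not measured. Genes of the integrated stress response were higher in 12 of 13, 9 of 13 and 12 of 13 cases in Tfam KO islets, Mfn DKO livers and Tfam KO livers, and in 10 of 13 on each diet in the Clec16a islets, where 3.99% of all genes on RFD and 5.62% on HFD were called higher.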

How the data were processed

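Libraries were made from DNase-treated total RNA and read as 151 bp pairs on a NovaSeq-6000, per the labels' protocols. The submitters' processing notes name FastQC, featureCounts, MultiQC, DESeq2, STAR 2.6.1b, RSEM 1.3.1 and the build GRCm38 without their roles; whether strand was used in counting is not given in the sources used here. Each deposited table gives raw counts, TPM and CPM for 55487 genes. The members and lists were chosen with earlier results of these data known. Tests used the deposited counts with edgeR 4.0.16 (TMM scaling, filterByExpr, quasi-likelihood F-test, Benjamini-Hochberg over all genes tested, adjusted p of 0.05 or less), fitted apart for Tfam islets, Clec16a islets and livers. CPM in the report is the authors' count divided by the TMM-scaled library size, except the mean of at least 10 in the choice of members, which uses library totals. TPM is the authors' deposited value and was used to describe levels per length, with no test; the deposited CPM was not tested. Named members were, per comparison, the 3 called with the smallest adjusted p in each direction, the stalk, paralogs and parents, the 3 highest and lowest by TPM, and Rpl5, Rpl11, Rps6 and Rps19. Paralog ratios used counts plus 0.5. DESeq2 1.42.0 and the other alternatives are in the closing section. Scripts were tested on simulated data, with 1 common spread for all genes, so the shares recovered need not hold for the members. Genes changed 1.5-fold were called in 79% of cases in Tfam islets, 26.6% in Clec16a islets on RFD and 4.76% in Tfam KO livers. For genes changed 2-fold the shares were 100%, 96.5% and 40%. Small changes can thus go uncalled. Positions are from GENCODE M21. Named pseudogenes took 0.0957 to 1.36 counts per 100 member counts, and reads shared with such copies make single values uncertain.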

Additional observations from a re-analysis of the deposited data

Results flagged for a closer look

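Of 232 group and measure combinations tested for a library far from the rest of its group, 17 had one, where chance gives about 1 in 20. Genes of 1 library can vary together, so the combinations are not independent. Tfam KO livers and male Tfam islets had too few libraries for this rule, so none of theirs could be flagged. Female Tfam control islet replicate 4 gave 5 of them, all as the highest of 5 libraries. Rpl22 had 161 CPM there against 107 to 121 in the others, Rplp2 302 against 176 to 211, Rps19 181 against 111 to 129.8, Rps24 482 against 303 to 328, and Rps6 298 against 192 to 221. The ratio of Rps27l to Rps27 was highest in female Tfam control replicate 3, at 0.287 against 0.178 to 0.207.

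Clec16a islets held most of the rest. Control RFD replicate 1 had the members at 1.19% of counts against 0.983% to 1.01% in the others, and the lowest ratio of Rpl7l1 to Rpl7, 0.220 against 0.235 to 0.238. The small-subunit to large-subunit ratio was lowest in KO HFD replicate 3, at 0.755 against 0.776 to 0.784. KO HFD replicate 4 was highest for Rpl22l1 (39.2 CPM against 16.3 to 21.3) and for Rpl39 (26.8 against 8.63 to 11.5). Control HFD replicate 4 was lowest for Rpl4 (595 CPM against 704 to 753) and Rplp0 (214 against 273 to 296). KO RFD replicate 4 was highest for the ratio of Rpl22l1 to Rpl22 (0.450 against 0.291 to 0.315) and for Rps4x (197 CPM against 128 to 135), and KO RFD replicate 3 for Rps24 (280.1 against 207 to 213). In liver, Mfn DKO replicate 1 had the highest Rps4l, 14.8 CPM against 7.40 to 8.55.

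The log2 ratio of Rpl22l1 to Rpl22 moved in opposite directions with loss of Tfam in the 2 tissues, by -0.75 in islets and 1.28 in liver. The difference between tissues was not tested.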

How the results depend on the processing

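Same-numbered libraries did not deviate together (median correlation of deviations 0.0653, -0.0163 and 0.0873 in Tfam islets, Clec16a islets and livers), so numbers are not treated as pairs. With a replicate block the calls were 55 in Tfam islets, 12 in females and 47 in males, 1 on RFD, 0 on HFD, 1 in Mfn DKO and 11 in Tfam KO livers. With library totals alone they were 72 in females, 75 in males, 3 on HFD, 58 in Mfn DKO and 42 for Tfam KO against Mfn DKO livers, and Rpl7l1 in Tfam islets turned to 0.053. DESeq2 called 25 in females, 2 on RFD, 59 in Mfn DKO and 29 for Tfam KO against Mfn DKO. The acinar score as a covariate gave 31 in females, 14 in males and 1 on RFD. Keeping genes of low counts gave 0 on HFD. Fitting only the compared groups, an alternative chosen after seeing the data, gave 2 on RFD, 0 on HFD and 69 in Mfn DKO livers. The share of all genes called is not given for these fits, and the causes were not tested.

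With each library left out in turn, calls ran from 37 to 76 in Tfam islets, 5 to 66 in females, 1 to 67 in males, 0 to 2 on RFD, 0 to 7 on HFD, 7 to 62 in Mfn DKO, 72 to 76 in Tfam KO and 0 to 70 for Tfam KO against Mfn DKO livers. The log2 difference of paralog ratios ran from 1.11 to 1.63 for Rpl22l1 to Rpl22, -0.65 to -0.50 for Rps27l to Rps27 and -0.54 to -0.41 for Rpl7l1 to Rpl7 in Tfam KO livers, and from -0.38 to -0.27 for Rpl7l1 to Rpl7 in Tfam islets. Medians of the members kept their sign in Tfam islets (0.32 to 0.44), Mfn DKO (0.40 to 0.54) and Tfam KO livers (0.92 to 1.20). The smallest groups were 2 male KO islets and 3 Tfam KO livers.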

Other observations

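In the Clec16a islets Rpl39 separated the libraries in a way the groups do not give. It had 26.6 to 31.9 CPM in 6 libraries (control HFD 5 and 6, control RFD 1 and 2, KO HFD 4 and KO RFD 4) and 8.63 to 13.996 CPM in the other 13. The 6 came from all 4 groups, with 3 on each lane, and their totals of 26708172 to 55810879 counts overlapped those of the rest, 16235173 to 44399128. In the same 6 libraries 10 of 79 members lay wholly above the other 13 and 0 wholly below, while 2.14% of the 9424 genes tested with a mean of at least 10 CPM lay wholly above and 0.828% wholly below. Rpl39 itself, on which the libraries were divided, is 1 of the 10. They included Rps4x, Rps3a1, Rpl26, Rpl37a, Rps21, Rpl30, Rpl39, Rpl23a and Rpl22l1, the last at 36.7 to 49.2 CPM against 16.3 to 22.2. The division was chosen on Rpl39 after its values were seen, so no test was made.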
